A study of Mus musculus with 36 samples.

Results

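Broad accessible regions were taken as the regions of an ATAC-seq count table that span 3000 bases or more from start to end. Of 1393120 regions in the table, 8680 reached that width. The 5 of these with the highest counts summed over all libraries were set aside, and the remaining 8675, which are 0.623% of the table, are the broad regions described here. Of the 5 set aside, 3 were also among the 5 regions with the most counts of the whole table. The other 1384440 regions were narrower than 3000 bases and serve as the comparison.

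ATAC-seq uses a transposase that inserts sequencing adapters into DNA that is not packed against nucleosomes, so reads accumulate at promoters and enhancers. Most such sites are short, and wide stretches form where several open sites lie close together, for example in clusters of enhancers or along the start of a very active gene. In many tissues such clusters lie near the genes that define the cell type, and in the heart Gata4, Mef2c and Tbx5 are among the transcription factors that bind them.

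The cells came from neonatal hearts of mice of strain Cd-1 with genotype alpha-MHC-GFP, in which a cardiac myosin promoter drives green fluorescent protein. Thy1+ cells without GFP, described by the submitters as mainly rather than wholly fibroblasts, were sorted from explant cultures and infected. GMT cells received retroviruses for Gata4, Mef2c and Tbx5 plus sb431542, which blocks TGF-beta signalling, and xav939, which blocks Wnt signalling. They were sorted for GFP at day 2, 3, 7, 14 or 21, so only cells with an active reporter were measured. Fibroblasts received a dsRed retrovirus without inhibitors, and dsRed+ cells were sorted at day 7. A difference between GMT cells and fibroblasts therefore joins factors, inhibitors and sort, and outside day 7 also time, and these cannot be told apart. Each of the 6 groups had 3 libraries that the labels call biological replicates. Libraries were sequenced at either of 2 cores, and which library went to which core is not given in the sources used here. No annotation of the files' genome build, mm9, was used here, so no gene is named for a region and the cell types could not be checked against marker genes.

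The 18 libraries held 2.29 to 23.2 M counts, of which the 5 regions set aside took 5.07 to 49.6%. Levels are given as CPM, counts scaled to a common library size, where the size of each library was set by TMM (trimmed means of log ratios). Differences were tested with edgeR's quasi-likelihood test on the 144810 regions with enough counts, and a region is called where its Benjamini-Hochberg adjusted p over all of them is under 0.05. Of the broad regions 8674 were tested, all but 1 at chr11:16473418-16476458 with 127 counts in total, and of the narrower regions 136131. Narrower regions below are these tested ones, which are the better covered part of their class. On principal components of the broad regions' log2 CPM, the fibroblasts stood apart from all GMT libraries on the first (34.6% of variance). Day 2 replicate 1 and day 3 replicate 1 stood apart on the second (22.5%), and day 14 replicate 3 on the third (9.12%). Fibroblast replicates 1 and 2 had the lowest chi-square per degree of freedom over broad regions of any pair of replicates, 1.45, against 1.60 to 8.67 for the other pairs. This value was taken on raw counts and at a given spread rises with depth, so it does not rank closeness alone.

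Broad regions had a median width of 3481 bases, with quartiles at 3196 and 3967 bases and a maximum of 14702 bases. The narrower regions of the whole table had a median of 331 bases and those tested one of 1442 bases. Together the broad regions covered 32.4 Mb, which is 4.46% of all bases in regions. They lay on every chromosome of the table, from 0.544% of the regions of chromosome 1 to 0.826% of those of chromosome 11. Neighbouring broad regions lay a median of 51851 bases apart, 1512 of 8666 neighbouring pairs were under 10000 bases apart, and 6044 broad regions fell into 1792 runs in which each gap was under 50000 bases. Such runs are taken up again below.

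Leaving the 5 set-aside regions out of the total, broad regions took 9.04 to 12.0% of the counts of a library. The share averaged 10.6 ± 0.887% at day 2, 10.6 ± 1.32% at day 3, 11.6 ± 0.370% at day 7, 10.5 ± 1.10% at day 14 and 11.1 ± 0.514% at day 21, against 10.0 ± 0.617% in fibroblasts (SD, n = 3 each). The day 7 libraries lay at 11.3, 11.5 and 12.0%, above fibroblasts at 9.60, 9.73 and 10.7%, whereas every other day had at least 1 library below the highest fibroblast library. Broad regions were also denser than the narrower tested regions as a whole, though not than the shortest of them, since the 543 tested regions of 200 bases had a median of 4.07 CPM per kb and the 3698 of the width class next to it in the plot by width one of 2.72. The median level of broad regions per length was 1.44 ± 0.0879 CPM per kb at day 2, 1.44 ± 0.0973 at day 3, 1.48 ± 0.0110 at day 7, 1.43 ± 0.0303 at day 14 and 1.44 ± 0.0347 at day 21, against 1.37 ± 0.0503 in fibroblasts (SD, n = 3 each). Narrower regions had medians of 1.05, 1.04, 1.00, 1.08 and 1.04 CPM per kb on the same days and 1.01 CPM per kb in fibroblasts. In broad regions the day 7 libraries, at 1.48, 1.47 and 1.5 CPM per kb, all exceeded the fibroblast libraries at 1.41, 1.38 and 1.31. The order of the groups rests on the scaling, since with library totals alone the median was 1.67 CPM per kb at day 2, 1.55 at day 3, 1.33 at day 7, 1.49 at day 14 and 1.64 at day 21, against 1.11 in fibroblasts.

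**Figure D1:**
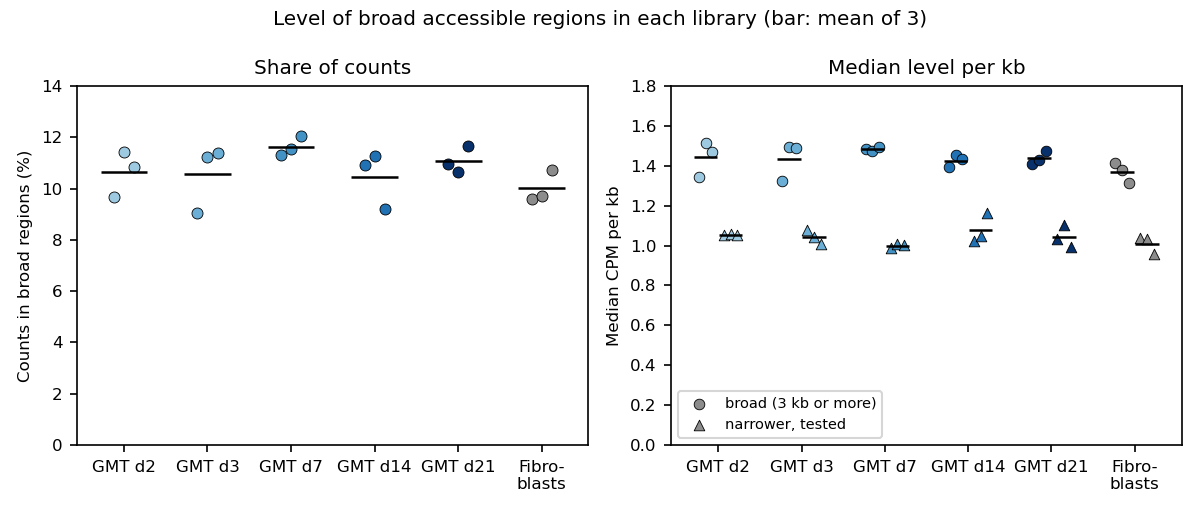
Share of a library's counts in broad regions (percent, the 5 regions set aside left out) and median level in CPM per kb, each point 1 library, with GMT cells at days 2, 3, 7, 14 and 21 left of fibroblasts, broad regions as circles and narrower tested regions as triangles. In broad regions the 3 day 7 libraries lie above the 3 fibroblast libraries in both panels, and in the level per kb broad regions lie above narrower ones in every library.

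The broad regions differed widely among themselves. Their average level ran from 0.217 to 65.9 CPM per kb, with a median of 1.45 and quartiles at 0.981 and 2.52 CPM per kb, and the median broad region had 5.54 CPM in all. The number of counts behind a value was modest, with a median of 14 to 135 counts per broad region and library, against 4 to 32 for narrower regions. The biological coefficient of variation had a median of 21.0% over broad regions and 24.1% over narrower ones. In bulk cells, a lower level can mean fewer cells with the region open or less opening per cell, and these cannot be told apart.

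At day 2 against fibroblasts, 1322 broad regions rose and 941 fell, 15.2 and 10.8% of those tested, where 12.2 and 8.09% of all tested regions rose and fell. At day 3, 1361 rose and 937 fell (15.7 and 10.8%, against 13.2 and 8.84% of all regions). Of the 5 days, day 7 had the most calls, with 1779 higher and 1156 lower (20.5 and 13.3%, against 15.5 and 12% of all regions). At day 14 there were 1241 higher and 1008 lower (14.3 and 11.6%, against 12.8 and 9.7%), and at day 21 there were 1407 higher and 1021 lower (16.2 and 11.8%, against 13.3 and 10.1%). In either direction 26.1, 26.5, 33.8, 25.9 and 28.0% of broad regions were called, against 20.3, 22, 27.5, 22.5 and 23.4% of all regions. The shares of broad regions called thus lay above those of all regions on each day and in both directions. Broad regions hold more counts, which by itself makes a change easier to call, so the comparison at equal level follows below. All 5 comparisons use the same 3 fibroblast libraries. The place of day 7 turned with the scaling. With library totals alone the calls in either direction were 2651, 2347, 2297, 2411 and 2977 at days 2, 3, 7, 14 and 21. They were then fewest at day 7 and most at day 21. These totals include the 5 regions set aside. Without fibroblast replicate 1 calls in either direction numbered 1451, 1476 and 1894 at days 2, 3 and 7, in place of 2263, 2298 and 2935.

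The median log2 fold change of called broad regions at day 2 was 1.30 for those that rose and -1.21 for those that fell, against 1.84 and -1.60 over all called regions. At day 21 the same medians were 1.29 and -1.17, against 1.76 and -1.56. These medians depend on the call, and in broad regions, which hold more counts, smaller changes can pass the test, so they do not show that changes in broad regions were smaller. The median over all broad regions was 0.00 at day 2, 0.02 at day 3, 0.12 at day 7, 0.06 at day 14 and 0.09 at day 21.

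The balance of rises and falls depended on how libraries were scaled. Among called broad regions, 58.4, 59.2, 60.6, 55.2 and 57.9% were higher at days 2, 3, 7, 14 and 21. With trended normalization, which removes differences between libraries that follow the average level, the shares were 33.8, 32.3, 27.1, 33.9 and 31.1%. With library totals alone they were 94.6, 92.0, 81.9, 88.3 and 93.1%. Over all tested regions the share higher was 52.8% at day 2 and 51.9% at day 7 with trended normalization, and 60.1 and 56.5% with TMM. Under library totals the median of all regions shifted by 0.63, 0.51, 0.30, 0.58 and 0.66 on the log2 scale. Whether rises outnumbered falls among broad regions is therefore not settled by these counts. Between regions of like CPM, the order of broad and narrower ones in the share that rose was less sensitive to scaling, as follows. That order differed where level was taken per kb, as given further below.

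At equal average level, broad regions were called higher less often than narrower ones in most bands. Between 1 and 2 on the scale of average log2 CPM, 6.26% of 2190 broad regions rose at day 7, against 22.6% of 27740 narrower regions. Between 2 and 3 the shares were 21.0% of 3403 broad and 38.8% of 13773 narrower regions, and between 3 and 4 they were 34.2% of 1678 and 45.4% of 6016. Falls ran the other way, with 20.2% of broad and 14.2% of narrower regions lower between 1 and 2, and 14.4% against 10.8% between 2 and 3. The median log2 fold change between 1 and 2 was -0.26 in broad and 0.20 in narrower regions. At the same count a broad region has fewer reads per base than a narrow one, so the bands set dispersed signal beside concentrated signal.

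The order turned round among the best covered regions. Between 5 and 6, 27.6% of 355 broad regions rose at day 7, against 19.8% of 1645 narrower regions, and between 6 and 7, 24.3% of 103 against 9.83% of 234. Day 21 was alike, with 5.02% of broad and 19.7% of narrower regions higher between 1 and 2, and 15.2 and 9.85% between 5 and 6. In each of the 5 day comparisons, broad regions were less often higher than narrower ones in the bands from 0 to 4 in 18 of 18 alternative ways of processing, trended scaling and library totals included. Between 4 and 5 this held in 18 of 18, except for 17 of 18 at day 2, and between 5 and 6 in 0 of 18. Between 6 and 7 the order varied at days 2 and 3. For falls the order was less uniform over the alternatives.

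**Figure D2:**
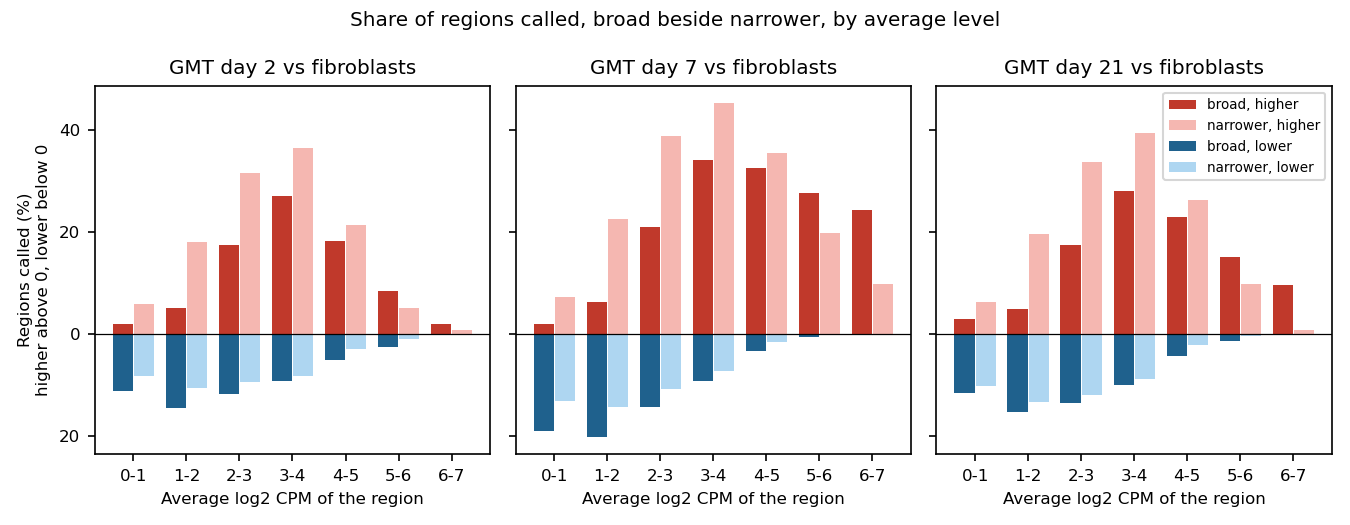
Percent of tested regions called higher (above 0) and lower (below 0) in bands of average log2 CPM 1 unit wide, at days 2, 7 and 21 against fibroblasts, for broad regions beside narrower ones. Below an average log2 CPM of 5 the broad regions rose less often than narrower ones, and above it more often.

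Regions were also grouped by level per length. The broad regions were split into 4 density classes of equal number with limits at 0.981, 1.45 and 2.52 CPM per kb. Narrower regions were the tested ones between the same limits, so only those kept by the count filter. In the sparsest class at day 7, 4.75% of broad regions rose and 18.7% fell, against 2.91 and 12.4% of narrower ones. In the next class the shares were 15.8 and 16.3%, against 13.3 and 14.1%, and in the third 28.6 and 12.5%, against 27.5 and 12.7%. In the densest class 33.0% of broad regions rose and 5.90% fell, against 37.5 and 7.34% of narrower ones. At day 7, broad regions thus rose more often than narrower ones in every class but the densest. In the bands below an average log2 CPM of 5 they had risen less often. The gap in rises in the densest class was wider on other days, with 20.5% of broad and 28.7% of narrower regions higher at day 2, 21.9 and 30.9% at day 3, 20.5 and 28.8% at day 14 and 24.2 and 31.0% at day 21. At day 7 the share that rose was thus greater, and the share that fell smaller, in the densest class than in the sparsest for both width groups. With trended scaling the sparsest class of broad regions had 2.26% higher and 24.3% lower at day 7 and the densest 16.6% higher and 23.1% lower, so rises again were more common in dense regions but no longer outnumbered falls there. At days 14 and 21 falls were more common in dense than in sparse broad regions with trended scaling. The densest class then had 20.0 and 20.3% lower, against 14.0 and 17.4% in the sparsest. At days 2 and 3 these shares were about equal, at 18.5 and 18.8% in the densest class and 18.1 and 18.7% in the sparsest. With TMM, narrower regions at day 14 had 9.57% lower in the densest class, against 6.98% in the sparsest. The level of the densest class was taken as the median over its regions in each library. It averaged 4.35 ± 0.672 CPM per kb at day 2, 4.38 ± 0.914 at day 3 and 5.32 ± 0.246 at day 7. At days 14 and 21 it averaged 4.44 ± 0.554 and 4.79 ± 0.559, against 4.20 ± 0.152 in fibroblasts (SD, n = 3 each).

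**Figure D3:**
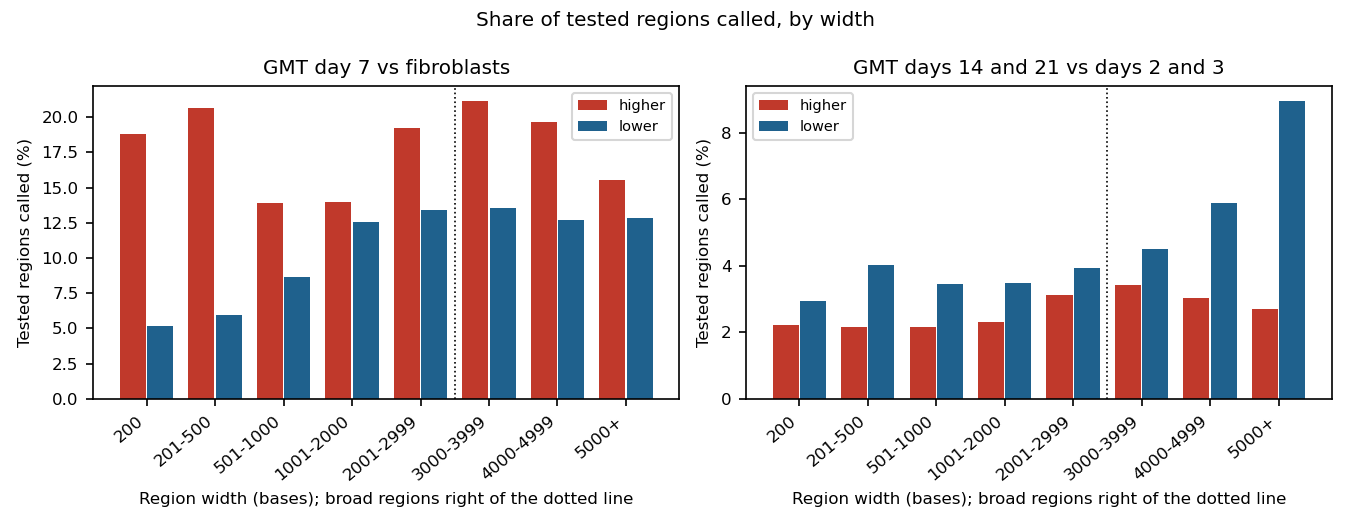
Percent of tested regions called higher and lower by width class, for day 7 against fibroblasts and for days 14 and 21 against days 2 and 3. At day 7 the share lower reaches 12.6 to 13.5% in the 5 widest classes, and in the later against earlier comparison the share lower is greatest, at 8.95%, in regions of 5000 bases or more. Of all regions of 200 bases only 0.125% were tested.

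Within the broad regions, the share that rose at day 7 against fibroblasts was lower in the wider classes. Of 6600 regions of 3000 to under 4000 bases, 21.2% rose and 13.5% fell, of 1482 regions of 4000 to under 5000 bases 19.6 and 12.7%, and of 592 regions of 5000 bases or more 15.5 and 12.8%. At the other end, only 543 of 435546 regions of 200 bases (0.125%) had enough counts to be tested. Of these, 18.8% were higher and 5.16% lower. They are a part chosen by the count filter, so these shares do not describe that width class and are not like for like with the broad ones.

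Individual broad regions opened strongly from the first time point. The region at chr14:20631417-20636434, 5017 bases wide, had 42.6, 73.9 and 101 CPM at day 2 and 17.9, 77.8 and 51.7 CPM at day 3, against 2.74, 1.39 and 1.08 CPM in fibroblasts. All GMT libraries lay above all fibroblast libraries, and the level then declined to 18, 22.7 and 15 CPM at day 14 and 20.8, 13.7 and 22.6 CPM at day 21. The log2 fold change was 5.19 (SE 0.58) at day 2, with an adjusted p of 7.92e-08 by edgeR's quasi-likelihood test with Benjamini-Hochberg adjustment, and 3.27 (SE 0.56) at day 21. For days 14 and 21 against days 2 and 3 it fell by 1.67 (SE 0.32, adjusted p 0.00139 by the same edgeR test), a call kept in all 24 alternatives, so this region was highest early.

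The region at chr11:83205616-83209061, of 3445 bases, stayed open instead. It had 29.8, 20.1 and 27.1 CPM at day 2, 25.0, 25.2 and 28.7 CPM at day 7 and 21.4, 17.4 and 25.7 CPM at day 21, against 2.1, 0.925 and 2.16 CPM in fibroblasts. Its log2 fold change was 3.83 (SE 0.38) at day 2 and 3.60 (SE 0.38) at day 21, and day 21 and day 2 overlapped. Likewise at chr17:28054629-28058575, of 3946 bases, day 3 libraries had 8.70, 10.4 and 11.4 CPM, against 0.821, 0.925 and 0.360 CPM in fibroblasts, a log2 fold change of 3.73 (SE 0.39, edgeR quasi-likelihood adjusted p 2.89e-11).

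At day 7 the largest rise was at chr17:26834875-26837914, a region of 3039 bases with 19.5, 19.2 and 21.6 CPM, against 0.821, 1.62 and 0.721 CPM in fibroblasts (log2 fold change 4.28, SE 0.39). The region at chr11:54724338-54728021 had 60.9, 43.2 and 46.8 CPM at day 7, against 2.37, 2.54 and 3.60 CPM in fibroblasts, and its log2 fold change was 3.39 at day 2, 3.63 at day 3, 4.21 at day 7, 3.38 at day 14 and 3.73 at day 21. It was thus open at every day sampled and highest at day 7. The region at chr17:56195311-56198327 had 22.9, 32.1 and 24.8 CPM at day 7 and 27.3, 15.1 and 20.4 CPM at day 14, against 1.55, 1.62 and 1.8 CPM in fibroblasts. Named regions were taken among called regions whose groups did not overlap, so the lack of overlap in the comparison that names a region is part of the choice.

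At the late days, the region at chr16:4520548-4523812, of 3264 bases, had 14.6, 18.2 and 9.5 CPM at day 14 and 14.2, 17.4 and 22.6 CPM at day 21, against 1.09, 1.39 and 0.721 CPM in fibroblasts. Its log2 fold change at day 21 was 4.02 (SE 0.38, edgeR quasi-likelihood adjusted p 1.7e-12). The region at chr14:65228866-65231980 had 25.1, 14.7 and 14.0 CPM at day 14, against 1.19, 2.31 and 0.721 CPM in fibroblasts, a log2 fold change of 3.68 (SE 0.38). The largest log2 fold change at day 21 among regions whose groups did not overlap, 4.17 (SE 0.72), belonged to chr1:137750996-137754246. Its libraries scattered more, with 17.7, 55.7 and 49.5 CPM at day 21 and 14.7, 58.9 and 38.5 CPM at day 2, against 2.19, 3.01 and 1.44 CPM in fibroblasts, and day 2 replicate 1 was the lowest of its group.

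The broad regions with the largest falls were mostly low already at day 2. At chr1:191674937-191678147, of 3210 bases, libraries had 2.56, 2.93 and 2.44 CPM at day 2, 3.30, 2.97 and 3.58 CPM at day 7 and 2.79, 3.08 and 2.50 CPM at day 21, against 21.3, 22.0 and 23.1 CPM in fibroblasts. The log2 fold change was -3.02 (SE 0.30) at day 2 and -3.00 (SE 0.28) at day 21, and the libraries of these days overlapped with each other. At chr10:85811699-85816263, of 4564 bases, it was 7.68, 6.62 and 9.78 CPM at day 2 and 6.54, 6.05 and 3.58 CPM at day 7, against 62.8, 46.7 and 62.0 CPM in fibroblasts. The log2 fold change there was -2.85 at day 2, -2.81 at day 3, -3.40 (SE 0.31) at day 7, -3.06 at day 14 and -3.20 at day 21. The region at chr15:53505530-53508898 had 1.92, 2.08 and 1.83 CPM at day 2, against 13.1, 13.0 and 13.7 CPM in fibroblasts. The region at chr10:10166899-10169937 had 1.85, 0.858 and 1.04 CPM at day 3, against 6.02, 6.48 and 12.3 CPM in fibroblasts.

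A stepwise fall was seen at chr1:71625818-71631841, of 6023 bases. It had 19.5, 16.6 and 21.6 CPM at day 2, 10.8, 27.6 and 15.2 CPM at day 3, 9.77, 14.2 and 9.65 CPM at day 7, 5.75, 9.74 and 8.08 CPM at day 14 and 6.24, 4.92 and 6.34 CPM at day 21, against 75.8, 81.2 and 86.5 CPM in fibroblasts. Against fibroblasts the log2 fold change reached -2.08 (SE 0.32) at day 2, -2.16 at day 3, -2.86 at day 7, -3.39 at day 14 and -3.78 (SE 0.34) at day 21. Day 21 lay below day 2 with a log2 fold change of -1.70 (SE 0.33, edgeR quasi-likelihood adjusted p 0.0015), a call lost in 1 of the alternatives, the fit with no filter on low counts (adjusted p 0.956). The region at chr1:71688290-71691768, which starts 56449 bases further along, also fell, with 2.34, 2.31 and 2.30 CPM at day 21, against 17.2, 22.7 and 22.0 CPM in fibroblasts (log2 fold change -3.13, SE 0.32).

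**Figure D4:**
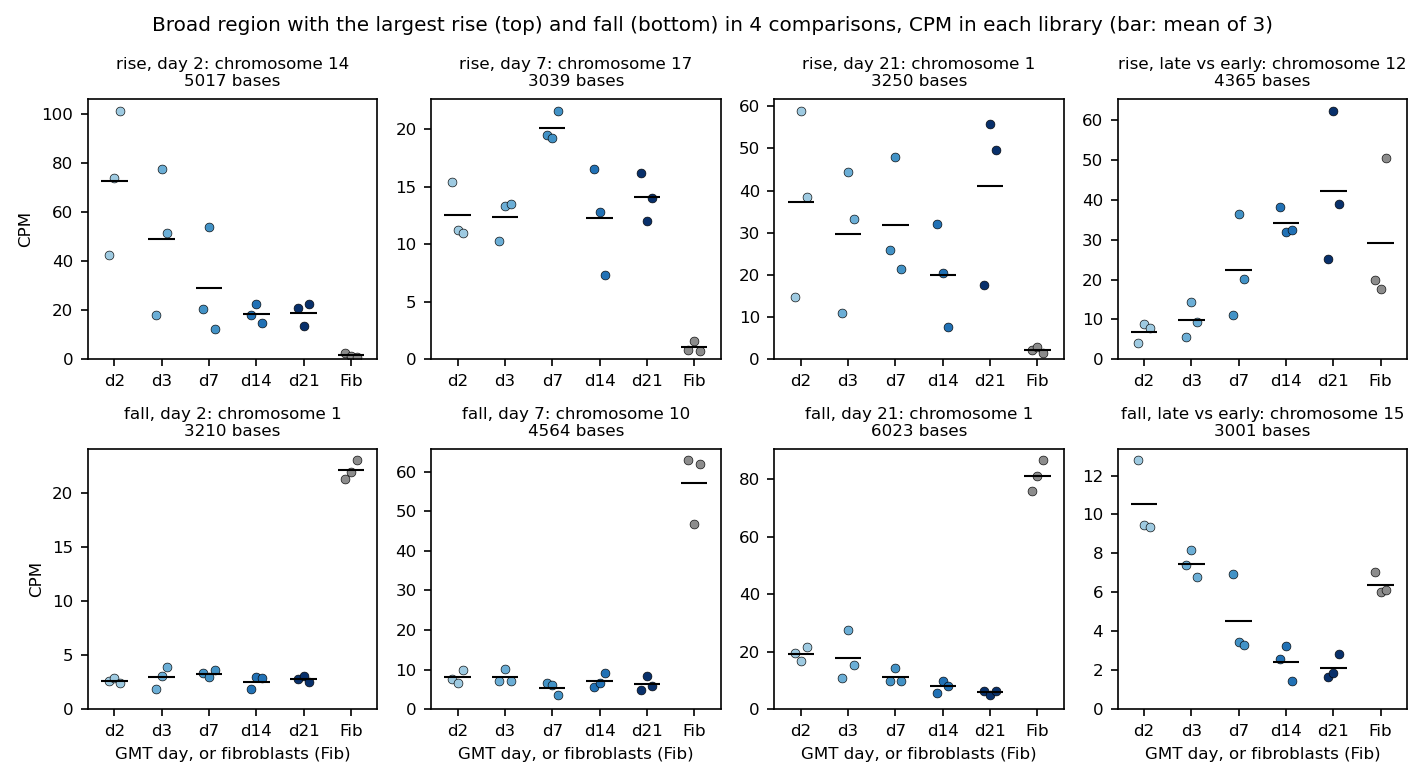
CPM on axes that start at 0, in all 18 libraries for 8 broad regions, GMT cells at days 2 to 21 left of fibroblasts, each point 1 library. The upper panels hold the region with the largest rise at day 2, day 7 and day 21 against fibroblasts and at days 14 and 21 against days 2 and 3, and the lower panels the region with the largest fall in the same comparisons.

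Within the GMT time course, changes were few. At day 21 against day 2, 70 broad regions rose and 109 fell, 0.807 and 1.26% of those tested, where 0.572 and 0.871% of all regions did (2.06% in either direction, against 1.44%). A further comparison set the average of days 14 and 21 against that of days 2 and 3, with 6 libraries a side. There 287 rose and 437 fell, 3.31 and 5.04%, against 2.5 and 3.66% of all regions (8.35% in either direction, against 6.17%). For comparison, 1451 broad regions in the first comparison and 2223 in the second had an unadjusted p under 0.05. The call counts leaned on single libraries, since at day 21 against day 2 the 179 calls were 115 and 43 when replicates 2 and 3 of day 2 were left out in turn, and 45, 84 and 72 when replicates 1, 2 and 3 of day 21 were. Rises then outnumbered falls without day 21 replicate 1 (29 higher, 16 lower) and without day 21 replicate 2 (46 higher, 38 lower), and with no filter on low counts 5 were higher and none lower, so which direction was more common at day 21 against day 2 is not settled. In the later against earlier comparison, the 724 calls were 360 when replicate 3 of day 2 was left out, 412 for replicate 1 of day 14, and 354 and 433 for replicates 1 and 2 of day 21. Without day 14 replicate 3, 267 were higher and 270 lower.

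Calls among the widest regions leaned downwards late, while the median log2 fold change over all 592 of them was 0.02. For days 14 and 21 against days 2 and 3, 4.5% of regions of 3000 to under 4000 bases fell, 5.87% of those of 4000 to under 5000 bases and 8.95% of those of 5000 bases or more (53 of 592), whereas 3.42, 3.04 and 2.70% rose. Falls outnumbered rises in the widest class in 24 of 24 alternatives, but their number leaned on single libraries. The 53 falls were 29 without day 2 replicate 3, 34 and 32 without replicates 1 and 3 of day 14, and 27 and 33 without replicates 1 and 2 of day 21. Those regions had a median of 7.79 CPM, which lies near the upper end of the band between 2 and 3 on the log2 CPM scale. In that band 6.23% of broad regions of any width fell and 3.61% rose, against 9.88 and 5.05% of narrower regions, and between 3 and 4 the shares lower were 8.16% of broad and 7.60% of narrower regions.

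Among late rises, the region at chr14:55556085-55559745, of 3660 bases, had 24.0, 32.5 and 53.3 CPM at day 21, against 4.80, 11.3 and 5.91 CPM at day 2. Fibroblasts had 6.93, 7.17 and 4.68 CPM, which overlapped with day 2, and day 7 had 19.3, 17.6 and 15.4 CPM. Its log2 fold change at day 21 against day 2 was 2.24 (SE 0.33, edgeR quasi-likelihood adjusted p 1.8e-05). The broad region 4641 bases further along, chr14:55564386-55568629, was likewise highest at day 21 of these groups, with 13.2, 20.2 and 22.2 CPM at day 21, against 3.20, 4.93 and 3.46 CPM at day 2 (2.19, SE 0.29), and 4.10, 3.70 and 4.68 CPM in fibroblasts. A further 15853 bases along lay a region that had been set aside for its counts, chr14:55584482-55587987. It had 77.2, 115 and 147 CPM at day 2 and 228, 161 and 277 CPM at day 21, against 13.2, 14.3 and 10.1 CPM in fibroblasts. Its log2 fold change against fibroblasts was 3.16 (SE 0.40) at day 2 and 4.13 (SE 0.42) at day 21. Of these 3 neighbours, 1 had thus risen by day 2, while the other 2 had log2 fold changes of 0.28 (SE 0.36) and -0.02 (SE 0.34) at day 2 against fibroblasts and of 1.44 and 1.14 at day 7. The second of those day 7 values is a call in edgeR's quasi-likelihood test that trended scaling ends (adjusted p 0.00302, and 0.126 with trended scaling).

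The region at chr12:105491235-105495600, of 4365 bases, was lower early than late. It had 4.16, 8.78 and 7.95 CPM at day 2, 38.1, 32.0 and 32.5 CPM at day 14 and 25.3, 62.5 and 39.1 CPM at day 21, against 19.8, 17.6 and 50.4 CPM in fibroblasts. Against fibroblasts its log2 fold change was -1.98 (SE 0.43) at day 2 and 0.56 (SE 0.39) at day 21, and fibroblast replicate 3 stood above the other fibroblasts. The fall at day 2 had an adjusted p of 0.000625 by edgeR's quasi-likelihood test, and of 0.11 without day 2 replicate 1 and day 3 replicate 1. Day 21 against day 2 gave 2.54 (SE 0.42, edgeR quasi-likelihood adjusted p 0.00057), and 2.32 with an adjusted p of 0.123 without the same 2 libraries.

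Late falls took several forms. At chr15:25748308-25751309, of 3001 bases, libraries had 1.67, 1.85 and 2.83 CPM at day 21, against 12.8, 9.47 and 9.37 CPM at day 2 (log2 fold change -2.21, SE 0.31), and fibroblasts had 7.02, 6.01 and 6.13 CPM. At chr13:23589239-23593213, of 3974 bases, day 21 had 3.79, 10.3 and 5.23 CPM, against 28.2, 27.4 and 24.2 CPM at day 2 (-2.08, SE 0.30), and fibroblasts had 21.2, 21.5 and 18.7 CPM. The first region lay above fibroblasts in every day 2 library without a call at that day (log2 fold change 0.67, SE 0.30), and the second began near the fibroblast level. A transient rise was seen at chr15:38405744-38408947, of 3203 bases. It had 20.5, 11.2 and 12.6 CPM at day 2, 12.7, 12.9 and 11.8 CPM at day 3, 4.89, 4.64 and 4.51 CPM at day 14 and 3.90, 3.69 and 3.36 CPM at day 21, against 5.47, 2.78 and 2.88 CPM in fibroblasts. It rose at day 2 against fibroblasts (log2 fold change 1.82, SE 0.30), and days 14 and 21 fell by 1.69 (SE 0.20, edgeR quasi-likelihood adjusted p 3.92e-08) against days 2 and 3. At chr10:117240303-117245656, of 5353 bases, day 21 had 4.79, 3.54 and 6.48 CPM, against 9.92, 23.0 and 33.0 CPM at day 2 (-2.13, SE 0.35), and day 2 replicate 1 was the lowest of its group. With no filter on low counts none of these 4 regions passed the test at day 21 against day 2 (edgeR quasi-likelihood adjusted p 0.14 at chr15:25748308-25751309, 0.192 at chr13:23589239-23593213, 0.469 at chr15:38405744-38408947 and 0.155 at chr10:117240303-117245656). The call at days 14 and 21 against days 2 and 3 was kept in all 24 alternatives for each of them.

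Runs of neighbouring broad regions showed whether changes extended over longer stretches, and the 5 runs with the most members were summed per library. The second by number of members, at chr13:11630462-12199759, held 42 broad regions over 192185 covered bases and rose nearly as a whole. Its summed level was 376, 371 and 313 CPM at day 2, 373, 337 and 322 CPM at day 3, 531, 484 and 446 CPM at day 7, 365, 441 and 288 CPM at day 14 and 395, 396 and 524 CPM at day 21, against 173, 146 and 134 CPM in fibroblasts. Every GMT library lay above every fibroblast library. Of its 42 members, 29 rose at day 2, 27 at day 3, 40 at day 7, 27 at day 14 and 38 at day 21, and none fell on any of these days, where 15.2, 15.7, 20.5, 14.3 and 16.2% of all broad regions rose. The median log2 fold change was 1.14, 1.06, 1.61, 1.16 and 1.41 on these days. Under trended scaling 17, 16, 29, 22 and 28 rose, and with library totals 40, 40, 41, 40 and 41, and again none fell. At day 21 against day 2 no member passed the test in either direction.

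The run with the most members, at chr14:43541261-44051647 with 51 broad regions, lay lower in GMT cells at days 2, 3 and 7. It summed to 203, 232 and 302 CPM at day 2, 293, 268 and 293 CPM at day 3, 262, 252 and 214 CPM at day 7, 275, 292 and 513 CPM at day 14 and 351, 307 and 219 CPM at day 21, against 449, 397 and 335 CPM in fibroblasts. Days 2, 3 and 7 lay below all fibroblasts, and day 14 replicate 3, which stood apart above, was higher than any other library. Of its members 12 fell at day 2, 5 at day 3, 19 at day 7, 1 at day 14 and 6 at day 21, and none rose on any of these days. With trended scaling 34, 20, 41, 2 and 19 fell, and with library totals 0, 1, 2, 1 and 1. The median log2 fold change with library totals was -0.12, 0.03, -0.40, 0.33 and 0.20 on these days. Both the direction of this run at days 3, 14 and 21 and the extent of its change thus depend on the scaling. Over all broad regions 10.8, 10.8, 13.3, 11.6 and 11.8% fell on these days, so the run's counts at days 3 and 21 were near the background and that at day 14 below it. Another run of 25 members, at chr14:42093476-42391364, averaged 107 ± 6.24 CPM at day 7, against 161 ± 23.4 CPM in fibroblasts (SD, n = 3 each), with 8 members lower and none higher. A run of 28 members at chr1:84922092-85343792 averaged 349 ± 20.2 CPM at day 7, against 432 ± 75 CPM in fibroblasts, with 4 members lower, a share near the 13.3% of all broad regions. The run of 24 members at chr17:5840630-6272639 averaged 297 ± 17.6 CPM at day 7, against 195 ± 28.3 CPM in fibroblasts, with 7 members higher and 1 lower. Over all broad regions 20.5% rose and 13.3% fell at day 7. With trended scaling 4 members of the chromosome 17 run rose and 4 fell, and with library totals 7 rose and 0 fell. In the runs of 25 and 28 members, 16 and 22 fell at day 7 with trended scaling. With library totals 0 fell in either, so these counts also depend on the scaling.

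**Figure D5:**
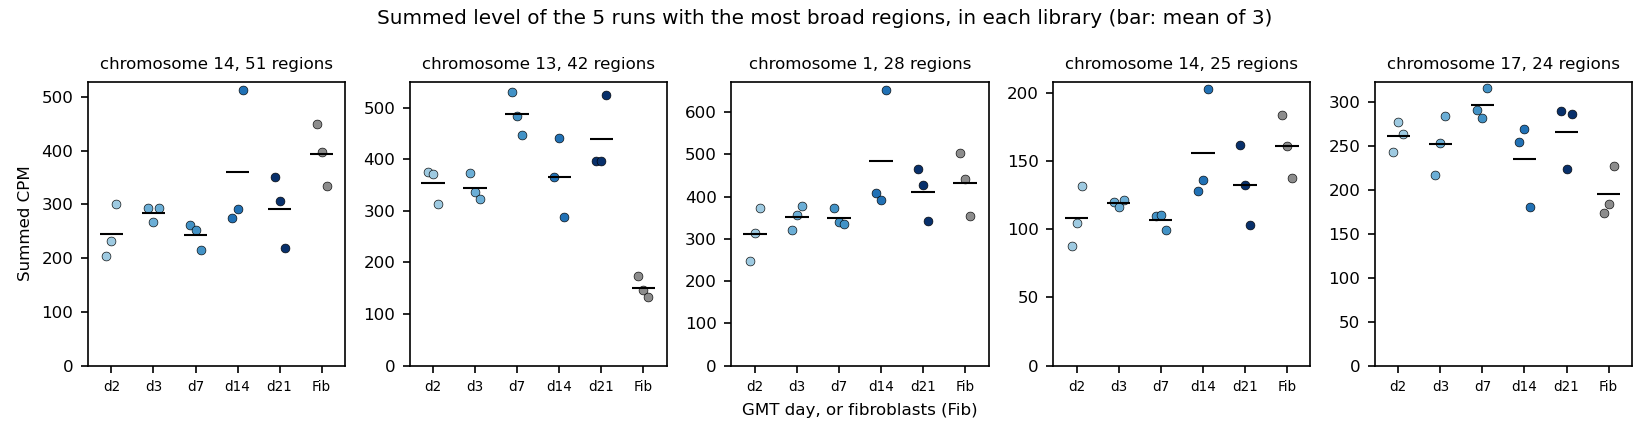
Summed CPM of the broad regions in each of the 5 runs with the most members, 1 point per library, GMT cells at days 2 to 21 left of fibroblasts. The chromosome 13 run lies at 288 CPM or more in every GMT library and at 173 CPM or less in fibroblasts, whereas the 51-member chromosome 14 run overlaps with fibroblasts at days 14 and 21.

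Narrower regions near a broad region tended to share its direction in the same libraries. At day 7, of 7065 narrower regions within 10000 bases of a broad region that rose, 27.1% rose and 5.93% fell. Of 3879 near a broad region that fell, 9.15% rose and 19.6% fell, and of 19471 near broad regions without a call 15.5% rose and 9.56% fell. At day 21 the shares were 24.2 and 5.21% near those that rose and 7.94 and 18.4% near those that fell. For days 14 and 21 against days 2 and 3 they were 9.37 and 1.98% near 287 risen broad regions and 0.428 and 12.0% near 437 fallen ones. This order of the shares held in all 18 alternatives for each day against fibroblasts and in all 24 for the later against earlier comparison. Neighbouring regions come from the same libraries and some broad regions share neighbours, so these are descriptions without a test.

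Of the 592 regions of 5000 bases or more, 28.4% were called at day 7, against 27.5% of all tested regions. At days 2, 3, 14 and 21 the shares were 22.5, 20.4, 20.3 and 23.3%, against 20.3, 22, 22.5 and 23.4% of all tested regions. With TMM the widest class thus lay near the share of all regions. With trended normalization 34.1, 31.6, 49.2, 29.6 and 35.1% of these regions were called at days 2, 3, 7, 14 and 21. The share of all regions with that scaling is not given here. At day 7, 37 were then higher and 254 lower, and with library totals 93 and 16, in place of 92 and 76 with TMM. Of the 5 widest regions only 1 was called on any day against fibroblasts. The widest of all, chr12:20232256-20246958 with 14702 bases, had 18.1, 23.9 and 18.4 CPM at day 21, against 30.6, 27.1 and 21.6 CPM in fibroblasts, with no call on any day. Of the next 4, at chr14:7313802-7326011, chr14:43958990-43970887, chr14:7755189-7766944 and chr16:3261852-3273313, the only calls were at chr14:43958990-43970887. That region of 11897 bases had 7.04, 11.6 and 13.2 CPM at day 2 and 14.4, 10.5 and 10.8 CPM at day 7, against 23.9, 18.5 and 17.7 CPM in fibroblasts. Its log2 fold changes were -0.90 (SE 0.31, adjusted p 0.0277) at day 2 and -0.76 (SE 0.30, adjusted p 0.0472) at day 7 by edgeR's quasi-likelihood test, each lost in 11 of 18 alternatives.

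Of the 3 broad regions with the most counts, those at chr17:13743369-13746488 and chr11:3030711-3038027 had no call. The one at chr11:3084192-3088152 had 196, 181 and 245 CPM at day 14, against 113, 107 and 85.8 CPM in fibroblasts, a log2 fold change of 1.02 (SE 0.35, edgeR quasi-likelihood adjusted p 0.0239) that was lost in 10 of 18 alternatives. Of the 5 set aside, the one at chr14:55584482-55587987 was described above, and chr1:24618407-24622986 fell at day 21 (-2.44, SE 0.80, adjusted p 0.0193 by the same edgeR test), a call lost in 10 of 18 alternatives. The others, at chr17:39979967-39985735, chr17:3081514-3084892 and chr11:74643260-74646627, had no call.

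At the limit of the width rule, the first 3 regions of 3000 bases in the table were chr10:24554172-24557172, chr10:120230799-120233799 and chr11:68701791-68704791. The first averaged 15.1 ± 0.925 CPM at day 7, against 6.49 ± 0.495 CPM in fibroblasts, the second 3.77 ± 0.465 against 3.92 ± 0.474 CPM, and the third 1.93 ± 0.214 against 2.19 ± 0.701 CPM (SD, n = 3 each). The first 3 regions 1 base short of it were chr1:127502828-127505827, with 7.08 ± 1.48 CPM at day 7, against 8.62 ± 0.471 CPM in fibroblasts, chr11:102976317-102979316, with 97.6 ± 9.96 against 60.2 ± 5.10 CPM, and chr12:69933896-69936895, with 10.2 ± 1.21 against 10.1 ± 1.21 CPM.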

How the data were processed

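The authors deposited whole-number counts of reads per region for 18 libraries, without normalization. The submitters' processing notes name Bowtie2, Picard, MACS2 and edgeR and build mm9, while versions, peak settings, adapter offset and pooling are not stated in the sources used. The table, as held, covers chromosomes 1 and 10 to 17, the last up to 79.1 Mb, and 1 of its 1393121 lines was incomplete and left out. Of 36 samples in the labels, 18 have no column and were not analysed here.

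From the counts, regions were kept with filterByExpr (minimum count 10, minimum total 15), scaled by TMM and fitted in 1 robust quasi-likelihood model with a mean per group (12 residual degrees of freedom; edgeR 4.0.16, R 4.3.3). Tests were two-sided and adjusted over all 144810 regions. They were also run on simulated counts with rises added to some broad regions at day 2, and the outcome is not given here. That simulation held no libraries that stand apart and no differences between libraries that follow the average level, so it does not cover these features of the data. Log2 fold changes are fitted values, and p-values cover only the spread between these libraries. Alternatives used limma 3.58.1 and DESeq2 1.42.0. The members, lists and comparisons were chosen with earlier results of these data known, and bands, density classes, runs and neighbours after seeing the data. Named regions are the 5 widest, the 3 with most counts, those at the width limit, and per comparison the 3 largest rises and falls among called regions whose groups did not overlap.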

Additional observations from a re-analysis of the deposited data

Results flagged for a closer look

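Day 21 and day 2 share the fibroblasts they are compared with, so the difference between both days' effects is the direct comparison of day 21 with day 2. By edgeR's quasi-likelihood test it differed for 70 broad regions that were higher and 109 that were lower at day 21. These were 0.807 and 1.26% of the broad regions tested, against 0.572 and 0.871% of all tested regions. Which direction was more common is not settled, since without day 21 replicate 1, 29 were higher and 16 lower. The largest differences on the log2 scale were 2.54 at chr12:105491235-105495600, 2.24 at chr14:55556085-55559745 and 2.19 at chr14:55564386-55568629 among the higher regions. Among the lower regions they were -2.21 at chr15:25748308-25751309, -2.13 at chr10:117240303-117245656 and -2.08 at chr13:23589239-23593213. The first of the higher regions no longer passed the test without day 2 replicate 1 and day 3 replicate 1 (adjusted p 0.123 by edgeR). The 3 lower regions no longer passed it with no filter on low counts (edgeR adjusted p 0.14, 0.155 and 0.192 in the order given).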

How the results depend on the processing

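Settings were changed 1 at a time. The share of broad regions called moved by over 1.5 times under a threshold of 0.01 (15.9, 16.5, 21.7, 16.9 and 18.1% at days 2, 3, 7, 14 and 21 against fibroblasts, 0.703% at day 21 against day 2 and 3.44% at days 14 and 21 against days 2 and 3). With no filter on low counts, where far more regions were tested, the shares in the same order were 7.19, 9.89, 17.1, 7.52 and 11.1%, 0.0576% and 0.288%. Library totals alone gave 0.380% and 2.92% in the last 2 comparisons. At day 21 against day 2, leaving out day 2 replicate 1 and day 3 replicate 1 gave 3.16%, and a width of 5000 bases or more gave 3.38%; the cause was not tested.

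Leaving out each library in turn gave shares called of 16.7 to 22.4% at day 2, 17 to 24.8% at day 3, 21.8 to 28.4% at day 7, 18.1 to 23.6% at day 14 and 18.8 to 23.8% at day 21 against fibroblasts, 0.496 to 1.49% at day 21 against day 2 and 4.08 to 7.16% at days 14 and 21 against days 2 and 3. The median level ranged over 1.41 to 1.49, 1.40 to 1.49, 1.48 to 1.49, 1.41 to 1.44 and 1.42 to 1.45 CPM per kb at days 2, 3, 7, 14 and 21 and over 1.35 to 1.40 in fibroblasts. With regions of 2000 bases or more it was 1.32, 1.33, 1.34, 1.32 and 1.32, and 1.24 in fibroblasts. With 5000 bases or more it was 1.27, 1.26, 1.26, 1.28 and 1.25, and 1.31 in fibroblasts, so the fibroblasts were then highest. With library totals it was 1.67, 1.55, 1.33, 1.49 and 1.64, and 1.11 in fibroblasts.

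Same-numbered libraries did not deviate together in general (correlations from -0.341 to 0.577, 10 of 45 pairs over 0.1), so the numbers were not taken as pairs. Between days 2 and 3 the correlations were 0.577, 0.437 and 0.245 for numbers 1, 2 and 3. Only for number 1 was the own number the best match. The comparison of days 14 and 21 with days 2 and 3 took these libraries as separate. With replicate number as a block, 25.7, 25.9, 33.3, 25.7 and 27.6% of broad regions were called at days 2, 3, 7, 14 and 21, 2.16% at day 21 against day 2 and 8.24% at days 14 and 21 against days 2 and 3. DESeq2 called 2068, 2036, 2618, 2072, 2184, 210 and 741 broad regions in the same order of comparisons. Of 792 alternative fits of named regions in the comparisons that name them, 4 lost the call and 0 reversed. The losses, all at day 21 against day 2, were chr12:105491235-105495600 as given above and, with no filter, chr15:25748308-25751309 (edgeR adjusted p 0.14), chr10:117240303-117245656 (0.155) and chr13:23589239-23593213 (0.192). These fits cover regions chosen as the largest changes among those already called in the same libraries, so the choice itself favours keeping the call. The region at chr14:43958990-43970887, named for its width and not among these fits, lost its day 2 call in 11 of 18 alternatives. Median counts of 14 to 135 per broad region limit what small changes could be seen.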
